A study of Mus musculus with 12 samples.

Results

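The genes described here are the translation factors and tRNA synthetases on an array of mouse cDNA clones, measured in the renal medulla of water-restricted and control mice. Members were taken by gene symbol, as the initiation factors of the eIF1 to eIF6 groups, the elongation factors eEF1 and eEF2, the aminoacyl-tRNA synthetases and the few regulators that share their names. The rule used no measured value and gave 76 of the 6786 genes that could be named, carried by 152 clones. They were 40 initiation factor genes, 6 elongation factor genes, 4 genes of regulators and 26 tRNA synthetase genes. All 76 members had values on all arrays, and no filter on low values was applied.

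RNA of 3 water-restricted and 3 control mice was amplified and hybridised in pairs, so that each water-restricted mouse met each control mouse. The 9 pairs took 12 arrays, because 3 pairs were run again with the dyes exchanged. RNA of the water-restricted mouse bore Alexa Fluor 546 on 6 arrays, called the 546 orientation here, and Alexa Fluor 647 on the other 6, the 647 orientation. The labels name no strain, sex, age or genotype, no length or degree of water restriction, and no treatment of the controls. The medulla, the inner kidney, concentrates the urine, and each sample is a mixture of its cell types, so that fewer cells of a type and less RNA per cell cannot be told apart.

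Each value is a deposited log2 ratio of the 2 dye channels, and its numerator dye is not given in the sources used here. The sign was changed on arrays of the 647 orientation, which assumes that the deposited ratios run by dye and had not already been turned to 1 group. The data settle this only weakly. Ratios that run by dye should oppose each other on the arrays of a dye-swapped pair, and as deposited these correlated at -0.14, 0.13 and -0.13 over all clones in the 3 pairs, and at -0.28, 0.31 and -0.02 over the 152 clones of the members. Read as already turned, 27 of 76 members lie on the other side, so each side given below holds for ratios that run by dye. On that reading, if Alexa Fluor 546 was the numerator, a positive difference therefore means a higher level under water restriction, and if Alexa Fluor 647 was, a lower one. The sides are therefore called positive and negative here. A mouse's level is its value on the log2 scale relative to the mean of the 6 mice, and a difference is the mean level of the water-restricted mice minus that of the controls. Levels of different genes cannot be compared, since ratios hold no abundance.

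Translation begins when eIF2 brings the initiator tRNA to the small ribosomal subunit, on which eIF1, eIF1A, eIF3 and eIF5 assemble. The eIF4 group binds the cap of the mRNA and unwinds its leader, and eIF2B reloads eIF2 with GTP after each round. Elongation then runs on eEF1A, which delivers charged tRNAs, and eEF2, which moves the ribosome along. The tRNA synthetases charge each tRNA with its amino acid, with largely but not wholly separate sets of enzymes for the cytosol and the mitochondria. High salt and urea, as found in a concentrating medulla, are known to slow protein synthesis in kidney cells, and kinases such as GCN2 act on eIF2 when cells are stressed.

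The arrays had medians from -0.04 to 0.06. Spots spread with an SD of 0.515 to 0.764 on 11 of them. The SD was 1.21 on the array that paired water-restricted mouse 2 with control mouse 2, which stands apart. Duplicate spots of the members' clones correlated at 0.428 to 0.723 within arrays. Of 18 listed markers of principal cells, the cells of the collecting duct, 6 were measured, and all 6 lay on the negative side with a median difference of -0.44. Of 31 listed markers of the proximal tubule, which lies mostly but not only in the cortex, 7 were measured. Of these, 6 lay on the positive side, and the median difference of the 7 was 1.05. The mean level of the measured proximal tubule markers was 0.44, 0.44 and 0.57 in water-restricted mice 1, 2 and 3 and 0.18, -1.03 and -0.60 in control mice 1, 2 and 3. Aqp2, Aqp3, Umod and Slc12a1, markers of tubule cells of the medulla that also lie in the cortex, were not among the named genes. The tissue label was not checked by level. The part of these cell types in the members' differences was not tested.

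Between water-restricted and control mice, no translation factor or synthetase passed the test. The limma adjusted p over all 6786 genes was under 0.05 for 0 of 76 members, beside 0% of all genes, and the smallest among the members was 0.904. An unadjusted p under 0.05 was found for 2 members, Eif2s3y and Eif3b, both on the positive side, against 4.97% of all genes. In a model that took the mice as random and all arrays as measurements of them, 0 of 76 members had a limma adjusted p under 0.05, beside 1.46% of all genes. Its smallest adjusted p among the members was 0.112, for Eif2s3y, and 7 members had an unadjusted p under 0.05, beside 11.5% of all genes. Nothing says more of the mice than their group and number. The p-values of the first test measure the spread among the 6 mouse levels, which also holds error of the arrays. The error of an array enters the levels of both groups, yet the test takes the levels as independent. Its standard errors therefore tend to be too large. The random model used a single ratio of mouse to array variance, 0.15, for all genes. Its p-values therefore rest on each gene's spread between arrays.

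The members lay more often on the positive side than genes in general, by a small amount that was not tested. The difference was positive for 54 members and negative for 22, while 50.7% of all genes were positive. The median difference of the members was 0.07, and that of all genes was 0.0034. The differences of the members ran from -0.44 to 0.55. The mice of the 2 groups did not overlap in 9 members, beside 9.8% of all genes. Of these, 6 were on the positive side (Eif2s3y, Eif3b, Eif4e, Eif1ad, Kars and Nars) and 3 on the negative side (Eef1a1, Eef2kmt and Eif3h).

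**Figure D1:**
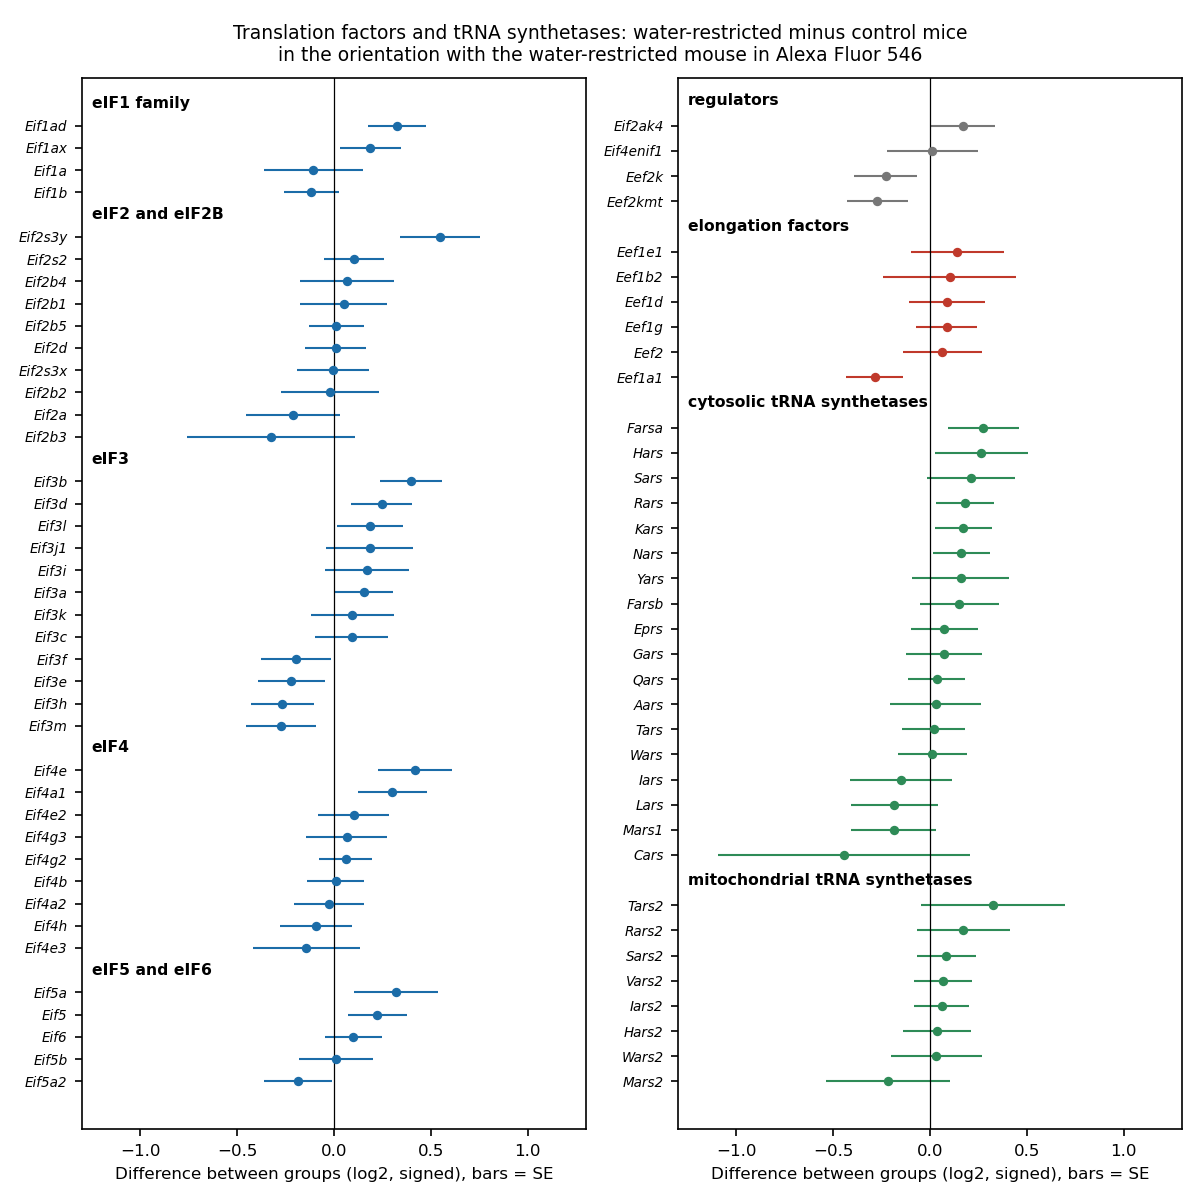
Difference between water-restricted and control mice for each of the 76 members, on the log2 scale with its standard error, ordered by role and by size. Most points lie right of 0 and most bars reach close to 0 or across it, with Eif2s3y at 0.55 and Cars at -0.44 as the ends of the range.

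The precision of these values bounds what could have been seen. The 95% intervals of the members' differences reached between 0.317 and 1.49 to either side, with a median of 0.416 on the log2 scale. They included 0 in 74 of 76 members, and they tend to be too wide because the error of an array enters both groups. In 72 members the interval lay wholly between -1 and 1, which is a doubling in either direction. Eif2b3, Eif2s3y, Cars and Tars2 had intervals that reached past this range.

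The eIF1 group, which helps the small subunit find the start codon, held 4 members with a median difference of 0.04. Eif1ad, a relative of eIF1A, had levels of 0.14, 0.06 and 0.29 in water-restricted mice 1, 2 and 3 and of -0.23, -0.21 and -0.04 in control mice 1, 2 and 3. The groups did not overlap, with a difference of 0.32 (SE 0.15, n = 3 mice per group). The difference was 0.73 in the 546 orientation and -0.17 in the 647 orientation. The 2 spots of Eif1ad correlated at only 0.02 over the arrays. Eif1ax, the X-linked gene of eIF1A, had a difference of 0.19 (SE 0.16) with overlapping groups. On the negative side lay Eif1b at -0.12 (SE 0.14) and Eif1a at -0.11 (SE 0.26). Eif1ax and Eif1a encode nearly the same protein, so a clone of either may take up signal of the other.

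The genes named after eIF2 and its exchange factor eIF2B gave 10 members with a median difference of 0.01. They include Eif2a and Eif2d, which are subunits of neither complex. Eif2s3y, the Y-linked gene of the gamma subunit, which binds GTP and the initiator tRNA, was the member with the smallest p. Its levels were 0.33, 0.34 and 0.149 in water-restricted mice 1, 2 and 3 and 0.147, -0.57 and -0.39 in control mice 1, 2 and 3. Control mouse 1 came close to the lowest water-restricted mouse, and control mice 2 and 3 were well below. The difference was 0.55 (SE 0.21, limma adjusted p = 0.904), positive on 10 of 12 arrays. It was 0.43 in the 546 and 0.62 in the 647 orientation, so both dye orientations gave the same side. With ratios read as already turned it was -0.10.

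Eif2s3x, the X-linked copy of the same subunit, had a difference of -0.01 (SE 0.19). Its levels were 0.13, 0.02 and -0.15 in water-restricted mice 1, 2 and 3 and 0.19, -0.33 and 0.15 in control mice 1, 2 and 3, so the groups overlapped throughout. The copies are similar in sequence, and their clones may share signal. The beta subunit gene Eif2s2 lay at 0.10 (SE 0.15). Eif2a, an initiation factor that is not a subunit of eIF2, lay at -0.21 (SE 0.24), and at 0.37 with ratios read as already turned.

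All 5 genes of the eIF2B subunits were measured, and 4 of them, Eif2b1, Eif2b2, Eif2b4 and Eif2b5, lay between -0.02 and 0.06. The remaining one, Eif2b3, had a difference of -0.33 with an SE of 0.43. Its level in water-restricted mouse 1 was -1.13 and in control mouse 1 it was 0.84, against -0.24 to 0.33 in the other 4 mice. These extremes meet on 1 array, which paired water-restricted mouse 1 with control mouse 1, where the value was -2.88.

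The eIF3 complex, the large scaffold that holds the other factors on the small subunit, gave 12 members, 8 positive and 4 negative, with a median of 0.13. Eif3b, a core subunit, had levels of 0.07, 0.36 and 0.17 in water-restricted mice 1, 2 and 3. In control mice 1, 2 and 3 its levels were -0.31, -0.27 and -0.01, so every control lay below every water-restricted mouse. The difference was 0.40 (SE 0.16, limma adjusted p = 0.939), positive on 10 of 12 arrays. Both of its clones were positive, at 0.28 and 0.51. The difference was 0.66 in the 546 orientation and 0.11 in the 647 orientation, and 0.29 with ratios read as already turned. Its value was 1.18 on the array that stands apart, and without that array its unadjusted limma p was no longer under 0.05.

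Eif3d, a subunit that can itself bind caps, lay at 0.25 (SE 0.16). Eif3a, the largest subunit, lay at 0.16 (SE 0.15) over 8 clones that spread from -0.23 to 0.47, 6 of them positive. On the other side, Eif3h had levels of -0.35, -0.02 and -0.04 in water-restricted mice 1, 2 and 3 and of 0.06, 0.05 and 0.29 in control mice 1, 2 and 3. The groups did not overlap, but water-restricted mice 2 and 3 lay close to control mice 1 and 2. Its difference was -0.27 (SE 0.16), and both of its clones gave -0.27. The difference was 0.06 in the 546 orientation and -0.62 in the 647 orientation. With ratios read as already turned it was 0.35. Eif3m lay at -0.28 (SE 0.18), with overlapping groups and a value of -1.03 on the array that stands apart. The subunits Eif3e and Eif3f were also negative, at -0.22 (SE 0.17) and -0.20 (SE 0.18). Eif3e, Eif3f, Eif3h and Eif3m were the 4 negative members of the complex, and none of its 12 members passed the test.

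The eIF4 group, which recognises the cap, gave 9 members with a median of 0.06. Eif4e, the cap-binding protein and a target of control by mTOR, had levels of 0.36, 0.26 and 0.0083 in water-restricted mice 1, 2 and 3 and of 0.0013, -0.52 and -0.10 in control mice 1, 2 and 3. The groups touched without overlapping, between water-restricted mouse 3 and control mouse 1. The difference was 0.42 (SE 0.19), positive on 11 of 12 arrays, and its 4 clones lay close together, from 0.37 to 0.49. Without control mouse 2 the difference of Eif4e was 0.26, and with ratios read as already turned it was -0.20.

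Eif4a1, the RNA helicase that works with eIF4E, had levels of 0.15, 0.22 and 0.09 in water-restricted mice 1, 2 and 3. Control mice 1, 2 and 3 had -0.08, -0.47 and 0.09, so control mouse 2 alone lay far below the rest. On the array that stands apart, which held this mouse, Eif4a1 was at 1.09. The difference was 0.30 (SE 0.18), positive on 10 of 12 arrays. Eif4a2, the second form of the helicase, was at -0.02 (SE 0.18). The negative end of the group was Eif4e3 at -0.14 (SE 0.28) and Eif4h, a helper of the helicase, at -0.09 (SE 0.19), whose 2 clones lay on opposite sides at -0.36 and 0.18.

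Eif5, which triggers GTP hydrolysis by eIF2, had a difference of 0.22 (SE 0.15), positive on 11 of 12 arrays. Eif5a, which carries the hypusine modification and helps the ribosome through difficult peptide sequences, lay at 0.32 (SE 0.22). Its levels were 0.11, 0.36 and 0.01 in water-restricted mice 1, 2 and 3 and 0.11, -0.60 and 0.02 in control mice 1, 2 and 3. Only control mouse 2 was low, and without it the difference of Eif5a was 0.10. Leaving out this mouse also drops the array that stands apart, where Eif5a was at 1.70. On the other arrays with control mouse 2, Eif5a was at 0.98 in the 546 orientation and at -0.15 and 0.17 in the 647 orientation. Eif5a2, the second form, lay at -0.19 (SE 0.17).

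**Figure D2:**
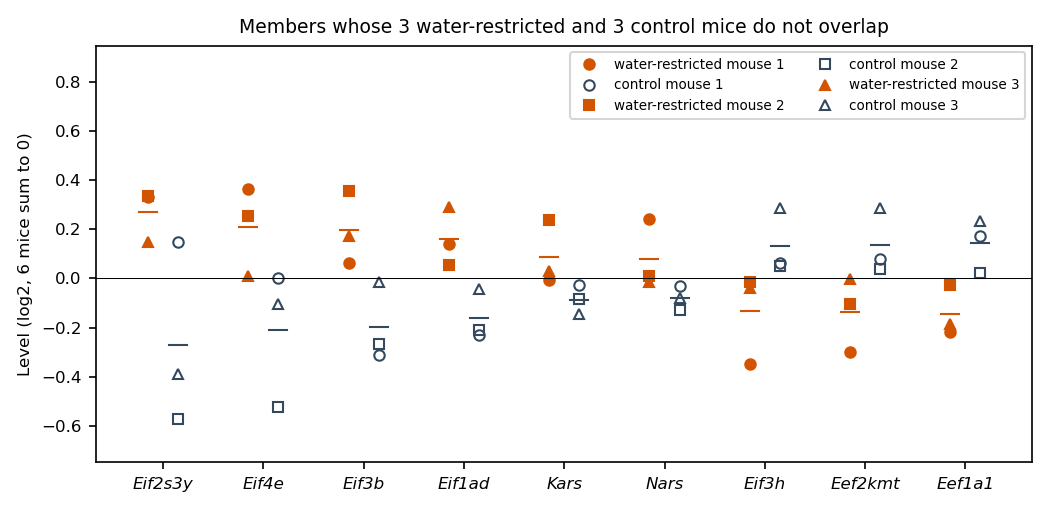
Levels in the 6 mice of the 9 members whose groups do not overlap, on the log2 scale with the 6 mice of a gene summing to 0, and short lines at the group means. The gap between the groups is narrow in most of them, as in Eif4e with 0.0083 in water-restricted mouse 3 and 0.0013 in control mouse 1.

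The 4 regulators were 2 positive and 2 negative. Eif2ak4 encodes GCN2, the kinase that senses uncharged tRNA and phosphorylates eIF2. Its levels were 0.22, -0.03 and 0.07 in water-restricted mice 1, 2 and 3 and 0.14, -0.17 and -0.23 in control mice 1, 2 and 3, and the groups overlapped. Its difference was 0.17 (SE 0.17). Eif4enif1, which moves eIF4E into the nucleus, lay at 0.01 (SE 0.23), and its 3 clones ran from -0.44 to 0.33.

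Both regulators of eEF2 were negative. Eef2k, the kinase that stops eEF2, lay at -0.23 (SE 0.16). Eef2kmt, which methylates eEF2, had levels of -0.30, -0.10 and -0.0017 in water-restricted mice 1, 2 and 3 and of 0.08, 0.04 and 0.29 in control mice 1, 2 and 3. The groups did not overlap, and the difference was -0.27 (SE 0.16), but its 2 spots correlated at -0.39 over the arrays.

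Among the 6 elongation factors, Eef1a1 lay apart from the other 5. It encodes eEF1A, one of the most abundant proteins of the cell, and was spotted as 17 clones. Its levels were -0.22, -0.03 and -0.19 in water-restricted mice 1, 2 and 3 and 0.17, 0.02 and 0.23 in control mice 1, 2 and 3. No water-restricted mouse reached a control, although water-restricted mouse 2 and control mouse 2 were only a little apart. The difference was -0.29 (SE 0.15, limma adjusted p = 0.996). All 17 clones were negative, from -0.40 to -0.09 with an SD of 0.07, so the measurement of this gene repeated well within these samples.

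The orientations of Eef1a1 were less alike than its clones. In the 647 orientation the difference was -0.59, and in the 546 orientation it was 0.0065. The value was positive on 3 of 12 arrays, all of the 546 orientation. With ratios read as already turned the difference of Eef1a1 was 0.30. Clones share the dye and the mouse, so their number does not add mice to the comparison. Eef1a1 is also known for many near-identical processed copies in the genome, and its clones cannot tell them apart.

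The other 5 elongation factors had small positive differences, although their single arrays went both ways. Eef1g, a subunit of the complex that reloads eEF1A, lay at 0.09 (SE 0.16), with 6 of 6 clones positive between 0.02 and 0.13. Eef1d, of the same complex, lay at 0.09 (SE 0.20), and Eef2, the translocase, at 0.06 (SE 0.20). Eef1e1, a scaffold of the multi-synthetase complex, lay at 0.14 (SE 0.24). Eef1b2 lay at 0.10 (SE 0.34) with clones on opposite sides, at -0.26 and 0.47. Its level of 0.79 in water-restricted mouse 2 came with a value of 2.56 on the array that stands apart, and without that array its difference was -0.26.

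**Figure D3:**
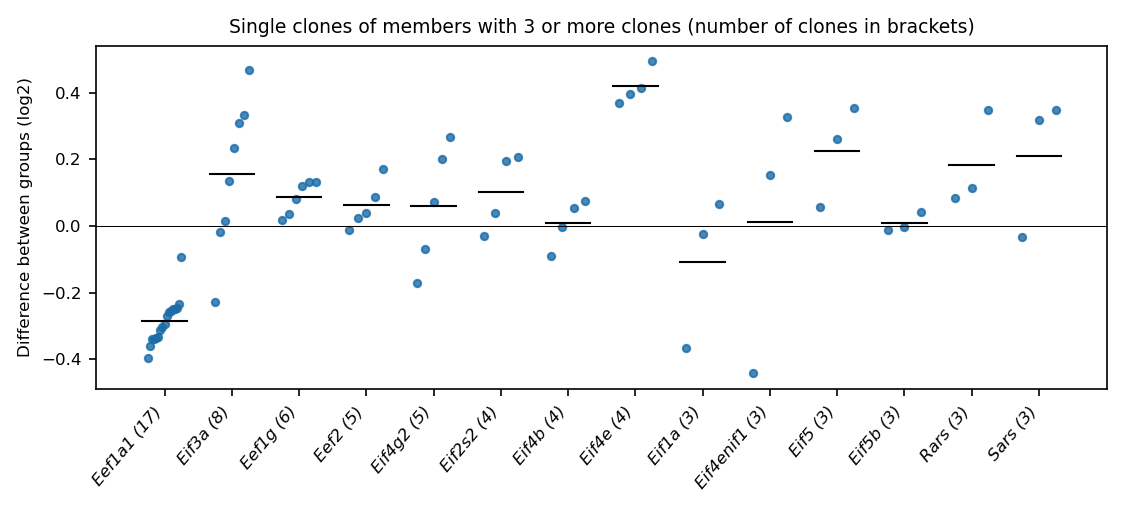
Difference between groups for each clone of the 14 members with 3 or more clones, on the log2 scale, with a line at the mean. All 17 clones of Eef1a1 lie below 0 and all 4 of Eif4e above 0.3, while the 8 clones of Eif3a reach from -0.23 to 0.47.

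The clones of a member thus repeated in some genes and not in others. Of the 76 members, 33 had more than 1 clone, and in 15 of these the clones lay on opposite sides. The remaining 43 members rest on 1 clone. The median SE between mice was 0.161 for members with several clones and 0.204 for members with 1.

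The cytosolic tRNA synthetases gave 18 members, 14 positive and 4 negative, with a median difference of 0.07. Farsa, a subunit of the phenylalanine enzyme, had levels of 0.11, 0.07 and 0.24 in water-restricted mice 1, 2 and 3 and of -0.37, -0.22 and 0.18 in control mice 1, 2 and 3. Control mouse 3 lay among the water-restricted mice, and the difference was 0.28 (SE 0.18). Farsb, its partner subunit, lay at 0.15 (SE 0.20). Rars, the arginine enzyme, lay at 0.18 (SE 0.15), with 3 of 3 clones positive.

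In Kars, the lysine enzyme, the levels were -0.01, 0.24 and 0.03 in water-restricted mice 1, 2 and 3 and -0.03, -0.09 and -0.15 in control mice 1, 2 and 3. In Nars, the asparagine enzyme, they were 0.24, 0.01 and -0.01 in water-restricted mice 1, 2 and 3 and -0.03, -0.13 and -0.08 in control mice 1, 2 and 3. In both genes the groups were separate by a few hundredths, with 1 water-restricted mouse higher than the rest. The differences were 0.17 (SE 0.15) for Kars and 0.16 (SE 0.15) for Nars.

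Mars1, Lars, Iars and Cars, the enzymes for methionine, leucine, isoleucine and cysteine, lay on the negative side. Mars1 was at -0.19 (SE 0.22), Lars at -0.18 (SE 0.22) and Iars at -0.15 (SE 0.26). With ratios read as already turned these 3 lay at 0.12, 0.40 and 0.35. Cars had a difference of -0.44 with an SE of 0.65. Its level was -1.74 in water-restricted mouse 2 and 1.14 in control mouse 2, and between -0.56 and 0.74 in the other 4 mice. The extremes come from the array that stands apart, where Cars was at -4.51.

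The 8 mitochondrial synthetases were 7 positive and 1 negative, with a median of 0.06. Tars2, the threonine enzyme, lay at 0.33 (SE 0.37) and had a value of 3.18 on the array that stands apart. Without that array its difference was 0.02. Rars2, for arginine, lay at 0.17 (SE 0.24), and Mars2, for methionine, at -0.22 (SE 0.32). The other 5 lay between 0.03 and 0.08.

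Several synthetase genes are known targets of ATF4, the transcription factor made when eIF2 is phosphorylated. ATF4 binds C/EBP-ATF response elements, whose core was searched as TGATGNAA on both strands. None of the cores printed here overlaps the E-box CACGTG, which was searched too. The windows ran from 250 bases before to 50 after the annotated start of each gene in RefSeq's table for GRCm38.p6, and 59 of 76 members matched an entry. Where a gene had several starts, any of its windows could hold the motif. The core was in 4.51% of the 27025 genes of the table, in 7 of the 59 members (11.9%) and in 5 of the 12 matched cytosolic synthetases (41.7%). Of these 5 synthetases (Aars, Gars, Iars, Tars and Yars), 4 are shown because synthetases are textbook targets of ATF4. The core is in capitals, TTNCATCA where it lies on the other strand, and each run is given 5′ to 3′ on the strand of the gene.
Gars, chr6:55037961-55037988, plus strand: ggctgcgctaTTTCATCAtgcaccgggc
Iars, chr13:49682127-49682154, plus strand: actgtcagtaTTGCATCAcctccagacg
Tars, chr15:11399656-11399683, minus strand: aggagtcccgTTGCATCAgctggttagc
Yars, chr4:129189896-129189923, plus strand: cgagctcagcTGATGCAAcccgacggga
The cores of Iars and Yars begin at positions 8 and 4, counted with the start as position 1, and those of Gars and Tars begin before it. A match of letters describes the window and is no evidence of binding.

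None of the 5 synthetases with the core passed the test between the groups, and their intervals all included 0. Aars lay at 0.03 (95% interval -0.51 to 0.57), Gars at 0.07 (-0.38 to 0.52) and Tars at 0.02 (-0.36 to 0.40). Yars lay at 0.16 (-0.41 to 0.73) and Iars at -0.15 (-0.76 to 0.46). The other members with the core were Eif2s3x and Eef2k. Atf4 itself lay at 0.77 (SE 0.24), positive on 12 of 12 arrays, with levels of 0.55, 0.55 and 0.06 in water-restricted mice 1, 2 and 3 and of -0.44, -0.77 and 0.05 in control mice 1, 2 and 3. Water-restricted mouse 3 and control mouse 3 were nearly alike in Atf4, and its limma adjusted p was 0.771.

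Pyrimidine-rich starts are the mark of mRNAs whose translation follows mTOR, among them those of ribosomal proteins and eEF1A. A C at the annotated start followed by 4 pyrimidines was found in 3 of the 59 members (5.08%), beside 3.01% of all genes of the table. When the C could lie within 5 bases on either side of the start, it was found in 17 members (28.8%), Eef1a1 among them, beside 21.2% of all genes. The E-box CACGTG was in 15 members (25.4%) and in 8.09% of all genes. The 3 members with the pyrimidines at the start itself are shown, with these 5 bases in capitals.
Eif2s3x, chrX:94212632-94212656, minus strand: ttttcCTTTTctctccgagcaagat
Eif3f, chr7:108934410-108934434, plus strand: gctctCTCTCtttctcggcaagatg
Wars2, chr3:99141085-99141109, plus strand: ccgccCTTCTcaagatggcgctgtt
Their differences were -0.01 for Eif2s3x, -0.20 for Eif3f and 0.03 for Wars2, none past the test.

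The members can be set beside the ribosomal proteins, the other large gene group of the translation machinery. Of 71 genes of cytosolic ribosomal proteins, 61 lay on the negative side, with a median difference of -0.17, and the members' median was 0.07. Of the 71 genes, 43 were positive in the 546 orientation and 4 in the 647 orientation. Their side, like the others, holds only for ratios that run by dye. Only Eef1a1 among the elongation factors lay on the negative side. Of 44 genes of mitochondrial ribosomal proteins, 31 were positive, with a median of 0.10. No test was made between these groups, and none of their genes passed an adjusted p of 0.05 in limma.

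The values of the members depended on the dye orientation. In the 546 orientation, 58 of 76 members were positive with a median of 0.18. In the 647 orientation, 30 were positive with a median of -0.09. Only 32 of 76 members (42.1%) had the same sign in both orientations, beside 47.7% of all genes. The medians of all genes were 0.05 and -0.04 in these orientations. By class, the medians were 0.11 and -0.09 for initiation factors, 0.29 and -0.25 for elongation factors, and 0.24 and -0.05 for synthetases. The cytosolic ribosomal proteins had 0.04 and -0.43.

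**Figure D4:**
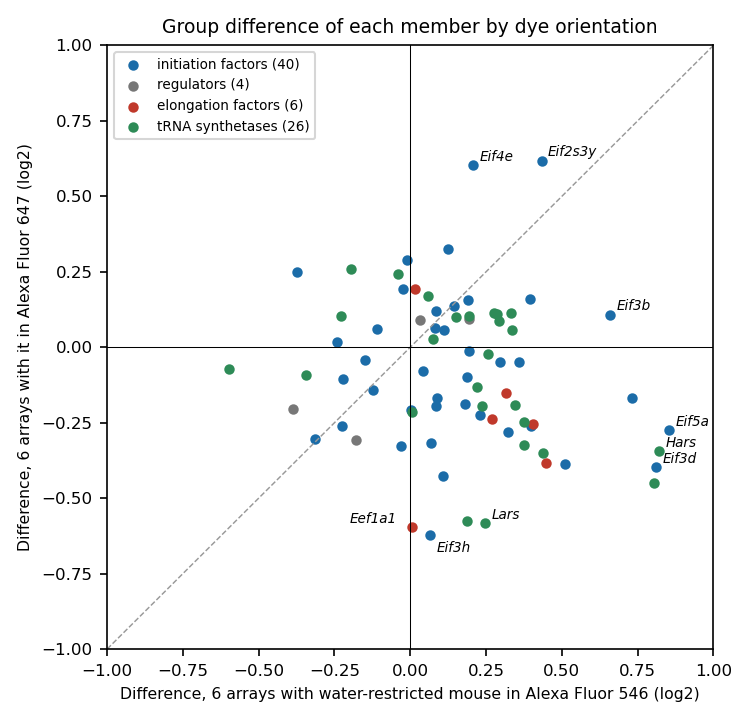
Difference of each of the 76 members over the 6 arrays of the 546 orientation (horizontal) and over the 6 arrays of the 647 orientation (vertical), on the log2 scale, with the line of equal values dashed. Eif2s3y and Eif4e lie in the upper right, whereas Eif5a, Hars and Eif3d lie in the lower right, positive in the first orientation and negative in the second.

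A dye term, the part of a gene's ratio that does not turn when the dyes are exchanged, was tested on the 12 arrays with limma. It passed an adjusted p of 0.05 in 9 of 76 members, all positive, beside 6.62% of all genes. These were Eif1ad, Eif3c, Eif3d, Eif5a, Eef1g, Hars, Iars, Lars and Wars. Hars, the histidine enzyme, had a dye term of 0.58 (SE 0.11, limma adjusted p = 0.0203), with 0.82 and -0.34 in the 2 orientations. Eif3d had 0.60 (SE 0.13, limma adjusted p = 0.0343), with 0.81 and -0.40, and Eif5a had 0.56 (SE 0.10, limma adjusted p = 0.0202), with 0.85 and -0.27. The other 6 had dye terms between 0.33 and 0.45. The term was positive in 55 of 76 members (72.4%), beside 59.7% of all genes, and its median was 0.11, beside 0.05. In the cytosolic ribosomal proteins it was positive in 64 of 71 genes, with a median of 0.23. Where the term is large, the group difference is a small remainder of 2 opposite values. In Wars the orientations gave 0.44 and -0.35 and the difference was 0.01. With ratios read as already turned, the dye term and the group difference change places by construction, although the dye term was tested against the spread between arrays and the group difference against that between mice.

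**Figure D5:**
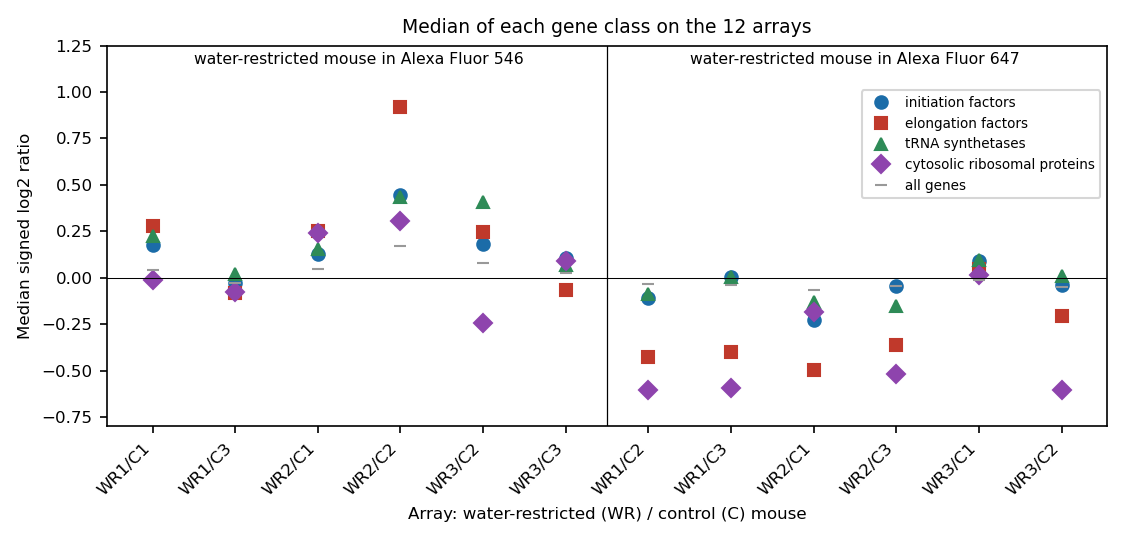
Median signed log2 ratio of the initiation factors, elongation factors, synthetases, cytosolic ribosomal proteins and all genes on each of the 12 arrays, by dye orientation (WR, water-restricted mouse; C, control mouse). The elongation factors stand at 0.92 where water-restricted mouse 2 met control mouse 2 and at -0.50 where it met control mouse 1 in the 647 orientation.

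Differences between mice of the same group passed the test in no member. A limma F-test of the differences within groups gave an adjusted p under 0.05 for 0 of 76 members, beside 0.206% of all genes, with a smallest value of 0.274 for Iars. An unadjusted p under 0.05 was found for 9 members and for 870 of 6786 genes. Control mouse 2 was the lowest of the 6 mice in 26 of 76 members, and water-restricted mouse 2 was the highest in 19. The same counts were not made over all genes, so they cannot be called particular to the members. The medians of all members were 0.01, 0.06 and 0.06 in water-restricted mice 1, 2 and 3 and -0.04, -0.11 and 0.02 in control mice 1, 2 and 3. Both mice that lead these counts were hybridised together on the array with the widest spread, where the median of the members was 0.43. Without that array 43 members were positive in place of 54, and the median was 0.03 for all members, 0.02 for initiation factors, -0.04 for elongation factors and 0.04 for synthetases.

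Genes that work with the members were taken from 8 lists, and none had an adjusted p under 0.05 in limma. The counts at an unadjusted p under 0.05 stand beside 4.97% of all genes. In the integrated stress response, which runs from eIF2 phosphorylation to ATF4 and its targets, 23 of 32 listed genes were measured, with 3 on the positive and 1 on the negative side at an unadjusted p under 0.05 and a median of 0.12. Nupr1, a stress-induced nuclear protein, lay at 1.10 (SE 0.25), and Vldlr, a lipoprotein receptor, at -0.64 (SE 0.20). Of the mTOR pathway 14 of 34 were measured, with 1 such gene, Mtor itself at 0.53 (SE 0.22), and a median of -0.07. Among poly(A)-binding proteins and eIF4 partners 13 of 18 were measured, with 2 such genes, Larp4 at 0.59 (SE 0.20) and Paip2 at 0.40 (SE 0.17), and a median of -0.05. Larp4 binds poly(A) tails, and Paip2 is an inhibitor of the poly(A)-binding protein.

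Of the mitochondrial translation factors 8 of 12 were measured, with a median of -0.09 and 2 such genes. These were Lrpprc, which stabilises mitochondrial mRNAs, at 0.47 (SE 0.15), and the elongation factor Gfm1 at 0.45 (SE 0.15). The multi-synthetase complex and tRNA processing had 13 of 24 measured, with Trnt1, which adds the CCA end of tRNAs, at 0.34 (SE 0.14) as 1 such gene and a median of 0.05. Release and recycling factors had 6 of 14 measured, 1 of them the member Eif2d, with 0 such genes and a median of 0.09. Chaperones near the ribosome had 18 of 20 measured, with 0 such genes and a median of 0.10. In ribosome biogenesis 23 of 31 were measured, with a median of 0.08 and 1 such gene on each side, Nop56 at 0.47 (SE 0.20) and Polr1c at -0.48 (SE 0.18).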

How the data were processed

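The values deposited by the authors are log2 ratios between channels, for 31200 spots on each of 12 arrays. The sources used here give no background correction, normalization or numerator dye. Adjacent spots of a clone were averaged to 15600 clones. Of these, 9191 carried 1 gene symbol in the platform annotation, 254 several and 6155 none, and averaging the clones of each gene gave 6786 genes. Another 2 clones with several genes include a member and were not used. Ratios of the 647 orientation were given the opposite sign. A weighted least-squares fit with a dye term, in which arrays of a dye-swapped pair weighed 0.5, yielded 6 mouse levels per gene. The 3 levels per group were compared by limma's lmFit and eBayes (version 3.58.1, R 4.3.3), and p-values were adjusted by Benjamini-Hochberg over all genes, at a threshold of 0.05. The dye term and differences between mice of a group were tested with limma on the 12 arrays, where the residual error is technical. The number of arrays limits the precision. The procedure was tested on simulated data. Named genes were members with an unadjusted p under 0.05, the 2 of smallest p on each side in each role, those past a threshold for the dye term or between mice, and 4 with the widest gap between opposite clones; other members named were chosen after their values were seen. The sequence windows of 1 synthetase are not reported here. The members and lists were chosen with earlier results of these data known. The mouse numbers were not used as pairs. Same-numbered mice had deviations that correlated at -0.01, -0.54 and -0.11, and mice of different numbers at -0.50 to 0.50. Same-numbered mice shared an array, whose error moves their levels in opposite directions. These values therefore cannot decide whether the numbers mark pairs.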

Additional observations from a re-analysis of the deposited data

Results flagged for a closer look

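Values of each member and of 4 class medians over the 6 arrays of each dye orientation were screened for an array far from the other 5. Of 160 sets of 6 values, 22 held such an array, and chance alone marks about 1 set in 20. Most were from the array that paired water-restricted mouse 2 with control mouse 2, the one with the widest spread. There Cars was at -4.51, with the next array at -0.53, and the median of the elongation factors was 0.92, with the next at 0.28. Also high there were Tars2 at 3.18 (next 0.80), Eef1b2 at 2.56 (next 0.29), Rars2 at 1.64 (next 0.21), Eef1d at 1.08 (next 0.31), Farsb at 0.96 (next 0.12), Eif3i at 0.94 (next 0.25) and Eprs at 0.82 (next -0.00048). Low there were Mars2 at -1.74 (next -0.34), Eif4enif1 at -1.24 (next -0.03), Mars1 at -1.12 (next 0.06), Eif3m at -1.03 (next -0.32) and Eif4e2 at -0.28 (next 0.06).

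On other arrays of the 546 orientation, Eif2b3 was at -2.88 where water-restricted mouse 1 met control mouse 1 (next -0.46), Eif2ak4 at 0.56 where water-restricted mouse 3 met control mouse 3 (next 0.22), and Tars at 0.97 where water-restricted mouse 3 met control mouse 2 (next 0.39). In the 647 orientation, Eef2kmt was at -1.07 where water-restricted mouse 1 met control mouse 3 (next -0.14), and Eif3i at 1.12 where water-restricted mouse 3 met control mouse 1 (next -0.09). Where water-restricted mouse 1 met control mouse 2 in that orientation, Eif2s3x was at 0.59 (next 0.10) and Aars at -1.20 (next -0.18), and where water-restricted mouse 2 met control mouse 1, Tars was at -1.24 (next -0.31).

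In 9 members the ratio differed between the dye orientations by the limma test of the dye term. The terms were 0.45 for Eif1ad, 0.45 for Eif3c, 0.60 for Eif3d, 0.56 for Eif5a, 0.33 for Eef1g, 0.58 for Hars, 0.38 for Iars, 0.41 for Lars and 0.39 for Wars.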

How the results depend on the processing

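No setting gave a member an adjusted p under 0.05 in limma, and the smallest in any setting was 0.112, with the mice as random. The count of members at an unadjusted p under 0.05, 2 as reported, was 1 with the mouse number as replicate block (Eif2s3y), 1 with clones whose spots correlated at 0.3 or more (65 members measured), 4 in the 546 orientation alone, 4 in the 647 orientation alone, 5 with ratios read as already turned, 6 from swapped pairs alone and 7 with random mice. In the last 5 of these settings 5.32%, 8%, 5.35%, 11.4% and 11.5% of all genes were at that level. Without the widest array, Eif2s3y, Eif3h and Eef1a1 were at that level and Eif3b was not, beside 6% of all genes. The count was 0 to 1 when a mouse was left out (0 without water-restricted mouse 1, water-restricted mouse 3 or control mouse 2). The count without overlap, 9 as reported, was 15 with 546 alone and 14 with 647 alone, where 11.3% and 13.9% of all genes did not overlap. Leaving out a mouse gave 10 to 19, the highest without control mouse 2, beside 15.3% to 18% of all genes. The count of dye terms, 9 as reported, was 0 from swapped pairs and 0 without any 1 mouse, where fewer arrays entered.

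The median of all members was 0.18 with 546 alone, -0.095 with 647 alone, 0.12 with ratios read as already turned and -0.00093 from swapped pairs. For initiation factors it was 0.11, -0.089, 0.10 and -0.0062 in these settings, 0.023 without the widest array, and 0.029 to 0.10 when a mouse was left out. For elongation factors it was 0.29 with 546 alone, -0.25 with 647 alone and 0.30 as already turned, and turned to -0.039 without the widest array. For synthetases it was 0.24 and -0.047 by orientation, and 0.038 without that array. With ratios read as already turned, 27 of 76 members and 16 of the 39 chosen by the naming rule changed side, among them Eif2s3y at -0.10, Eif4e at -0.20, Eef1a1 at 0.30, Eif3h at 0.35, Eif2a at 0.37 and Lars at 0.40. Swapped pairs put 37 of 76 members on the positive side. The replicate block changed no sign. Differences between mice could not be fitted for swapped pairs, and overlap is not defined for the block, swapped pairs, random mice or robust eBayes. Signal over background is not given, so dim clones could not be recognised.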
